A study of Arabidopsis thaliana with 3 samples.

Results

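Transcripts of core circadian clock genes were followed through 3 expression arrays of sorted root cells labelled mature endodermis, from wild type Columbia seedlings of Arabidopsis thaliana. The set was defined as 6 Affymetrix probe sets, 3 for genes that peak in the morning (CCA1, LHY and PRR9) and 3 for genes that peak later in the day or in the evening (PRR5, TOC1 and GI). Of these, 5 had a row among the 22810 probe sets of the table, 22746 of them for the plant. The probe set listed for PRR9, 266720_at, had none. The platform annotation used here pairs 1 of the 5, 264211_at, with its gene (GI). The names of the other 4, 266719_at (CCA1, AT2G46830), 261569_at (LHY, AT1G01060), 249741_at (PRR5, AT5G24470) and 247525_at (TOC1, AT5G61380), came with the definition of the set and were not in that annotation.

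The plant clock is a circuit of transcription factors that repress each other in turn through the day. CCA1 and LHY, a pair of related MYB-type factors, accumulate around dawn and repress evening genes such as TOC1 and GI. The pseudo-response regulators PRR9, PRR7, PRR5 and TOC1 follow in sequence and repress CCA1 and LHY, so that morning and evening transcripts normally run out of phase. In roots the clock has been described as running only part of the circuit known from shoots.

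The seedlings were 6 days old and had grown upright at 22 degrees Celsius on medium with 1% sucrose. They had 16 h of light and 8 h of darkness per day. Before growth they had been stratified (kept cold) for 2 days at 4 degrees Celsius. Root tips of about 1 cm were digested to protoplasts, and cells carrying green fluorescent protein, from the marker line the series text names E30, were sorted for RNA that was amplified in a pair of cycles. All 3 arrays belong to this 1 group and are labelled biological replicates 1, 2 and 3, with no control, mutant or second time point. The hour of the day at which roots were harvested and whether it was the same for the 3 replicates were not stated in the sources used here. The labels do not say how seedlings were divided among the replicates, so the spread below may be partly technical.

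Values are linear MAS5 signals. The median signal of plant probe sets was 55.1, 53.3 and 64.7 in replicates 1, 2 and 3. A reference level for absent sequence was set in each array from the 27 Bacillus subtilis controls, as their 90th percentile, at signals of 14.2, 13.1 and 12.3. Most of the marker genes of root cell types could not be matched to a probe set, so the label was checked only in part. GSO1, a receptor kinase needed for an intact Casparian strip, had signals of 3421, 5068 and 5823, and AT1G61590, known as SGN1, a kinase of the same pathway, had 5965, 9088 and 6609. JKD, a zinc finger factor of the ground tissue, had 27.2, 47.2 and 82.8, and BLJ (AT1G14580), another of that family, 40.5, 132.4 and 140.2. Both were above the reference level in limma's test, as were GSO1 and SGN1. So were 69.1% of all plant probe sets and the root hair gene EXPA7, so passing this test does not set the endodermis markers apart. SGN1, JKD and BLJ were added to the check after the annotation was seen. SCR, MYB36 and the CASP genes, the defining endodermis markers, were not among the matched probe sets.

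All 5 clock genes that could be measured were above the reference level on every array. In limma's test across all plant probe sets, 5 of 5 passed at a Benjamini-Hochberg adjusted p under 0.05, where 69.1% of all plant probe sets passed in the same direction and 11.1% in the other. With that background a count of 5 does not set the clock genes apart. The folds over this level depend on how it was set: over the highest Bacillus probe set the log2 difference was 1.32 for LHY and 3.46 for TOC1, and with a pseudocount of 16 it was 1.34 and 3.21, against 2.12 and 4.26 in the values below.

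CCA1, the dawn-phased MYB factor, had signals of 57.7, 60.0 and 71.1 in replicates 1, 2 and 3 (62.9 ± 7.15, SD, n = 3). The 3 arrays lay within 1.23-fold of each other. The mean log2 level was 2.25 ± 0.23 (SE) above the reference level, or 4.76-fold (limma, adjusted p = 0.000507).

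LHY, the partner of CCA1 in the morning repression of evening genes, had signals of 39.2, 50.9 and 94.7 (61.6 ± 29.2, SD, n = 3). Replicate 3 stood well above the other arrays, 2.41-fold over replicate 1 and 1.86-fold over replicate 2. The mean log2 level was 2.12 ± 0.35 (SE) above the reference level, or 4.36-fold (limma, adjusted p = 0.00315).

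PRR5, an afternoon pseudo-response regulator that represses CCA1 and LHY, had signals of 98.1, 122.8 and 70.5 (97.1 ± 26.2, SD, n = 3). Here replicate 3 was lowest and replicate 2 highest, 1.74-fold apart. The mean log2 level was 2.85 ± 0.25 (SE) above the reference level, or 7.19-fold (limma, adjusted p = 0.000291).

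TOC1, the dusk-phased pseudo-response regulator, had signals of 182.4, 270.3 and 329.4 (260.7 ± 74.0, SD, n = 3). Replicate 1 was lowest, and replicate 3 exceeded it 1.81-fold. The mean log2 level was 4.26 ± 0.29 (SE) above the reference level, or 19.2-fold (limma, adjusted p = 0.00013).

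GI, which encodes a stabiliser of the photoreceptor ZTL and peaks late in the day, had signals of 181.6, 260.6 and 112.5 (184.9 ± 74.1, SD, n = 3). Replicate 2 was highest and replicate 3 lowest, 2.32-fold apart. The mean log2 level was 3.73 ± 0.29 (SE) above the reference level, or 13.3-fold (limma, adjusted p = 0.000214).

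**Figure D1:**
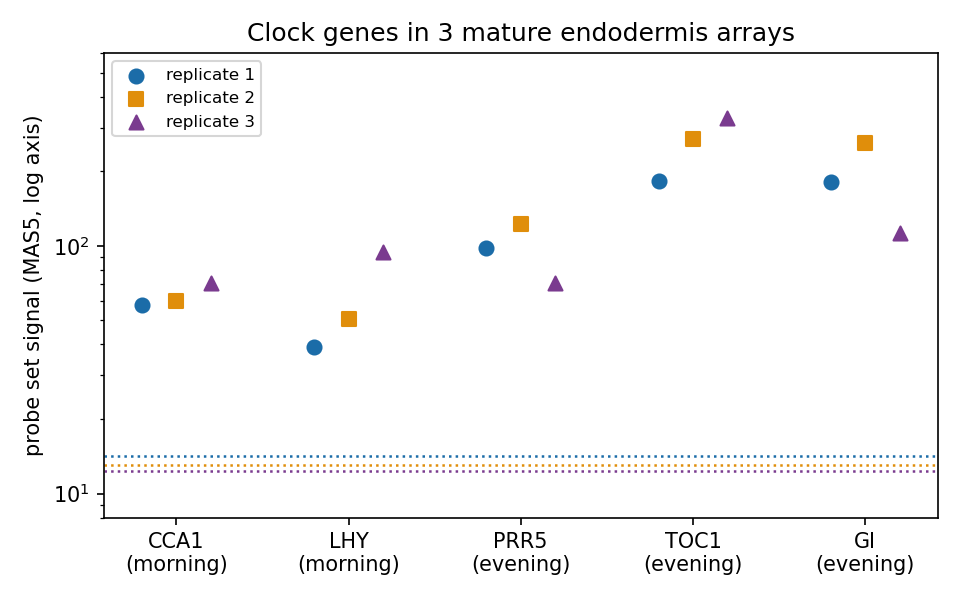
Signal of the 5 clock genes (log axis) in replicates 1, 2 and 3, with the reference level of each array as a dotted line in the same colour. All 15 points lie above their reference level. In replicate 3 CCA1, LHY and the evening gene TOC1 are highest, and GI and PRR5 are lowest. Levels of different probe sets are not comparable with each other.

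The probe set 266720_s_at, which carries the number listed for PRR9 with another suffix, had signals of 11.1, 16.3 and 4.89, above the reference level in 1 of 3 arrays. Its log2 level was -0.46 ± 0.37 (SE) relative to the reference level (limma, adjusted p = 0.302). Affymetrix uses the suffix _s_at for probes shared by several transcripts, and no table used here names its gene, so its values are not counted as PRR9.

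The morning and evening genes were then compared between the sorts, each gene against its own mean over the 3 arrays, since probe sets respond differently and their levels cannot be set against each other. In replicate 3 LHY deviated by 0.72 (log2) and CCA1 by 0.18, while GI deviated by -0.63 and PRR5 by -0.43. TOC1, classed with the evening genes, deviated by 0.38 in replicate 3, in the direction of the morning pair. In replicate 2 the order was turned for GI (0.58) and PRR5 (0.38) against LHY (-0.17) and CCA1 (-0.06), with TOC1 at 0.09. Replicate 1 held the lowest value of LHY (-0.55), TOC1 (-0.47) and CCA1 (-0.12), with GI at 0.06 and PRR5 at 0.05.

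Averaged over its genes, the morning class (CCA1 and LHY) minus the evening class (PRR5, TOC1 and GI) was -0.21 in replicate 1, -0.47 in replicate 2 and 0.68 in replicate 3, as a difference of log2 deviations. The value in replicate 3 came from LHY, which was high, and from GI and PRR5, which were low. TOC1 went against its class there, and CCA1 differed little from probe sets of like level, as described below. With 1 array per replicate no test of these differences was possible. Without TOC1, left out after its values were seen, they were -0.39, -0.59 and 0.98. With 266720_s_at counted as a morning probe set the difference in replicate 3 shrank to 0.20.

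**Figure D2:**
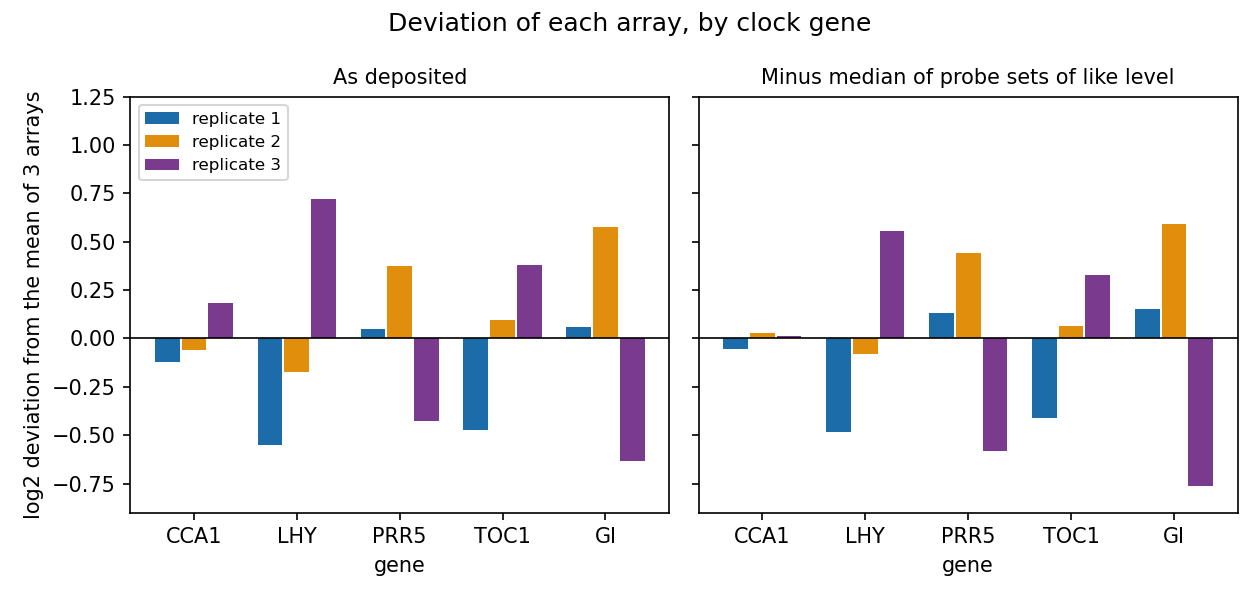
Log2 deviation of each array from the mean of the 3 arrays for each clock gene, as deposited (left) and after subtracting the median deviation of plant probe sets in the same of 10 groups of mean level (right). LHY and TOC1 keep their highest value in replicate 3 and GI and PRR5 their lowest, while CCA1 is nearly level on the right.

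The genes fell into 2 orders. CCA1, LHY and TOC1 were lowest in replicate 1 and highest in replicate 3, an order shown by 22.4% of all plant probe sets. PRR5 and GI, from lowest to highest, stood in the order replicate 3, 1, 2, which 11.6% of plant probe sets showed. The arrays have no order of their own, so this only records which genes were high together. PRR5 and GI, classed together, lay nearest to each other of the 10 pairs, with a Euclidean distance of 0.29 between their log2 deviations over the 3 arrays. LHY and GI lay farthest apart, at 1.66. TOC1 lay 0.44 from LHY and 0.43 from CCA1, against 1.24 from GI and 1.00 from PRR5. CCA1 and LHY, also classed together, lay 0.70 apart, farther than either was from TOC1.

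Part of the morning pattern moved with the scale of the arrays. Plant probe sets were divided into 10 groups of equal size by mean level, and those in the group of CCA1 and LHY had a median deviation of 0.17 in replicate 3, -0.09 in replicate 2 and -0.06 in replicate 1. Relative to these medians, CCA1 deviated by 0.01 in replicate 3 and by -0.06 and 0.03 in replicates 1 and 2. After quantile normalization CCA1 was 0.02 lower (log2) in replicate 3 than in replicate 2, so its place in replicate 3 depended on the scaling. TOC1 was level between replicates 2 and 3 (0.01 apart, log2) once each array was centred on its median, and still lowest in replicate 1. LHY kept a deviation of 0.55 in replicate 3 relative to probe sets of like level, GI -0.76, PRR5 -0.58 and TOC1 0.33. By rank, which no common scale changes, LHY stood above 41.7%, 49.0% and 59.1% of plant probe sets in replicates 1, 2 and 3. GI stood above 75.8%, 80.6% and 63.1%, and PRR5 above 63.7%, 68.1% and 52.1%. TOC1 stood above 75.9%, 81.1% and 83.1%, highest in replicate 3 as LHY was. CCA1 stayed between 51.2% and 52.6%.

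The 5 genes also differed in how far they spread. As deposited, LHY had the largest SD of log2 signal over the arrays, 0.65, where the median of plant probe sets in the same level group was 0.33, and 90.5% of that group spread less. GI had an SD of 0.61 against a median of 0.31, and 89.9% of its group spread less. TOC1 (0.43 against 0.29) and PRR5 (0.40 against 0.32) lay above their medians by less. CCA1, at 0.16 against 0.33, lay below, and 14.5% of its group spread less. CCA1 had the smallest SD of the 5 as deposited, after quantile normalization, centring or the pseudocount, and with any 1 array left out. The place of LHY depended on the setting: GI spread more after quantile normalization (0.71 against 0.53), after centring on the array median (0.75 against 0.52), with a pseudocount of 16 (0.55 against 0.52) and without replicate 1 (0.86 against 0.63). Without replicate 3 the SD of LHY fell to 0.27, and TOC1 had the largest, 0.40.

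**Figure D3:**
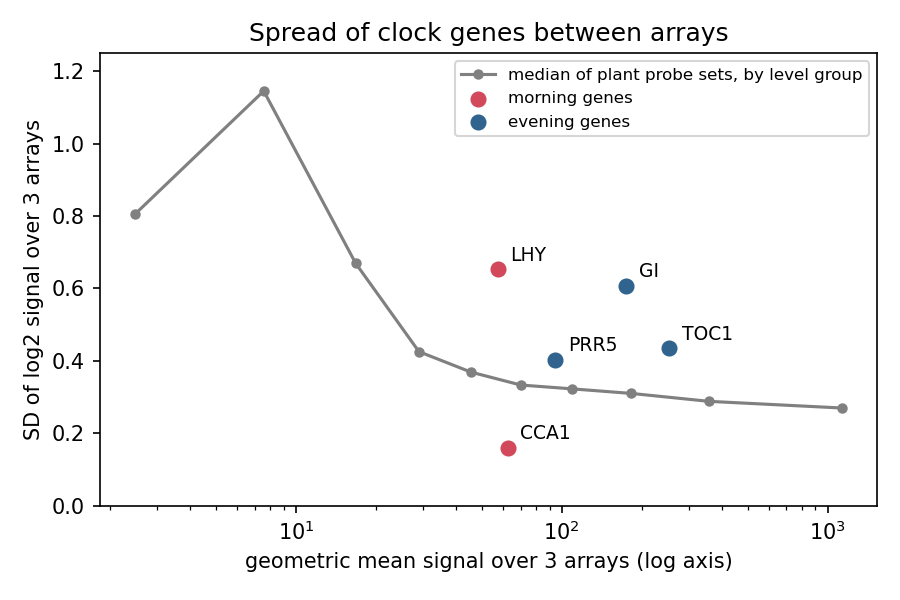
SD of log2 signal over the 3 arrays against geometric mean signal (log axis) for the 5 clock genes, with the median SD of plant probe sets in each of the 10 level groups in grey. LHY and GI lie well above the grey line and CCA1 below it.

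Of 37 other clock genes listed by locus, 6 could be matched to a probe set, and 5 of these passed above the reference level in limma's test, against 69.1% of all plant probe sets. COR28 (AT4G33980), an evening-phased clock output that also responds to cold, had signals of 487.8, 822.9 and 343.2, lowest in replicate 3 and highest in replicate 2 as GI and PRR5 were. COR27 (AT5G42900), its relative with a similar phase in the day, had 85.2, 45.5 and 54.0 and was highest in replicate 1, so the evening outputs did not share 1 order. Among genes phased to the morning, RVE6 (AT5G52660), a MYB-type factor related to CCA1 that activates evening genes, was nearly level at 313.4, 277.7 and 259.5. CDF5 (AT1G69570), a repressor of flowering, had 28.7, 10.5 and 36.5 and was the 1 gene that did not pass (log2 level 0.76 ± 0.41, SE, adjusted p = 0.15 in limma's test). TIC (AT3G22380), a clock regulator, had 153.1, 204.4 and 242.0, and XCT (AT2G21150), which affects the length of the period, 77.2, 65.1 and 95.0.

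A further 4 genes were added after the annotation was seen, chosen by their names there. Of these, RVE5 (AT4G01280), a relative of RVE6, had 50.3, 67.8 and 64.3. FIO1 and STIPL1, whose mutants lengthen the period, had 41.2, 47.2 and 35.9 and 107.2, 136.2 and 143.5. These 3 passed above the reference level, as did 69.1% of all plant probe sets. CCL, a clock-controlled transcript, had 20.3, 3.06 and 16.5 and did not (adjusted p = 0.572 in limma's test).

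Markers of cell types varied between the same arrays; those described here were chosen for description after their values were seen. EXPA7, an expansin of root hair cells and the only one of 5 epidermis genes that could be matched, had signals of 18.0, 71.5 and 192.0, a 10.7-fold range, lowest in replicate 1 and highest in replicate 3 as CCA1, LHY and TOC1 were. It was above the reference level in 3 of 3 arrays, but by only 1.27-fold in replicate 1. The size of its range thus rests on a value near that level. GSO1, JKD and BLJ had the same order as EXPA7 in the deposited values, given above, while SGN1 was highest in replicate 2. By rank BLJ stood above 69.6% of plant probe sets in replicate 2 and 67.9% in replicate 3. Its highest array thus depended on the scale. The cortex gene CO2 (AT1G62500) had 12.2, 28.7 and 10.6, or 0.85, 2.20 and 0.86 times the reference level of replicates 1, 2 and 3. It was highest in replicate 2 and lowest in replicate 3, as GI and PRR5 were. It did not pass above the reference level (adjusted p = 0.579 in limma's test). No gene of the stele or root cap lists was matched. Of the 28 markers listed by locus for the 4 cell types, 2 were matched, GSO1 and EXPA7. The part of these differences in the clock pattern was not tested. In sorted bulk samples, fewer cells of a type and less RNA per cell cannot be told apart.

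**Figure D4:**
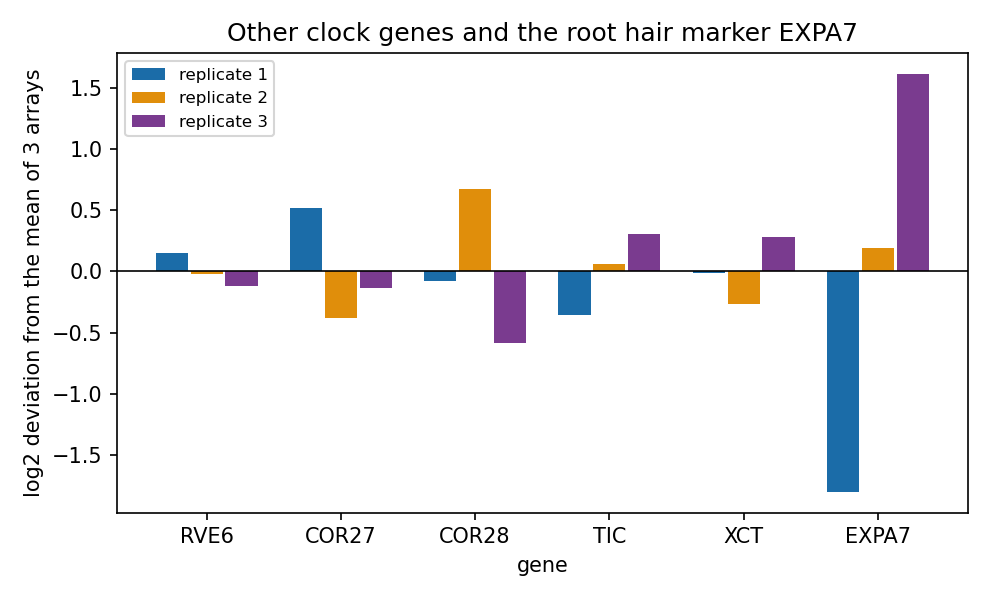
Log2 deviation of each array from the mean of the 3 arrays for the 5 other listed clock genes above the reference level and for the root hair marker EXPA7. COR28 is highest in replicate 2 and lowest in replicate 3, and EXPA7 has the widest range of the genes drawn.

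Other genes had patterns close to those of CCA1 and TOC1. Among 10162 probe sets with 1 named gene and a mean above the reference level, the nearest to CCA1 by Euclidean distance of log2 deviations over the 3 arrays were AT4G15840 (distance 0.00357), AT3G17920 (0.00566) and AT4G16650 (0.00586), and 319 (3.14%) lay within 0.1. The nearest to TOC1 were VHA-A3, a subunit of the vacuolar proton pump (0.00234), AT2G38090 (0.0155) and AT3G47610 (0.0158), and 138 (1.36%) lay within 0.1. A likeness over 3 arrays has little power to single out genes.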

How the data were processed

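Total RNA of sorted, GFP-marked root cells was measured on 3 Affymetrix arrays of 1 group. The authors deposited linear probe set intensities, 1 column per array. MAS5 is named in the submitters' processing notes, with no version, scaling target or detection calls stated there. No depth exists on arrays: their number limits the precision.

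Each array's reference level (90th percentile of Bacillus subtilis control probe sets) was subtracted from its log2 signals. The differences were tested against 0 for 22746 plant probe sets with limma 3.58.1 in R 4.3.3 (lmFit, eBayes, two-sided, Benjamini-Hochberg). The procedure was also run on simulated data with independent noise and 1 reference level for all arrays. That setting lacks the shifts between arrays seen here, so it lends no support to the calls. Deviations, SDs and 10 groups of mean level were descriptive. Annotation gave 1 gene for 13513 probe sets, several for 503 and none for 8730; loci came from RefSeq TAIR10.1.

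The planned morning class included PRR9, whose probe set has no row, so it held CCA1 and LHY. Named were all members, the 3 matched genes of each other clock list with the widest range, matched endodermis markers, and the 3 nearest patterns to CCA1 and TOC1; added clock genes and markers lie outside this rule. The members and lists were chosen with earlier results of these data known. Alternatives covered normalization, centring, pseudocount, reference level, variance trend, class members, probe set suffixes and leaving out each array.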

Additional observations from a re-analysis of the deposited data

How the results depend on the processing

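The 5 clock genes stayed above the reference level under all 9 alternatives tried for them, including each array left out. Their adjusted p in limma's test reached at most 0.0343, for LHY over the highest Bacillus probe set, a fit in which limma gave every probe set 1 standard error. The log2 differences themselves moved, for CCA1 from 2.25 to 1.43 with the pseudocount, 1.44 over the highest Bacillus probe set and 2.93 over the 75th percentile, and for GI from 3.73 to 2.71, 2.92 and 4.40. Of the 6 other clock genes, 5 or 6 passed. All 6 passed over the 75th percentile and without replicate 2, where 74% and 67.3% of all plant probe sets passed. Across the alternatives that share ran from 51.2%, over the highest Bacillus probe set, to 74%. Neither count therefore sets the clock genes apart. The difference between morning and evening genes in replicate 3, 0.68, ran from 0.20 with 266720_s_at as a morning probe set to 0.98 without TOC1, both chosen after seeing the data. It was 0.64 after quantile normalization, 0.55 with a pseudocount of 16 and 0.58 with CCA1 and LHY against TOC1 and GI. With 1 array left out it ran from 0.45 to 0.57. Without replicate 3, replicates 1 and 2 stood at 0.13 and -0.13. With 2 arrays the deviations are equal and opposite by construction. Leaving an array out only moves the mean that deviations are taken from, so these values follow from those with all 3 arrays. They are no separate check. The gap between replicates 1 and 2 was the same with and without replicate 3. Replicate 1, at -0.21 with all 3 arrays, changed sign for that reason alone. The median SD of the 5 genes, 0.43, became 0.27 without replicate 3. The SD of CCA1, 0.16, became 0.05 after quantile normalization and 0.04 without replicate 3, and that of LHY, 0.65, became 0.27 without replicate 3. No paired analysis was possible because there is only 1 group of arrays.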
